A study of Mus musculus with 2 samples.

Results

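Cadherin, catenin and Wnt signalling genes were examined in the cerebral cortex of mice with a conditional loss of presenilin and of control mice. The 10 genes were the cadherins Cdh1 and Cdh2, the catenins Ctnnb1, Ctnna1 and Ctnnd2, the destruction complex genes Axin1, Apc and Gsk3b, the Wnt transducer Dvl1 and the Wnt target Ccnd1. They were chosen by name, and a probe set was taken where the array's annotation paired it with exactly 1 symbol among them. This gave 11 of the 12418 probe sets on the array, for 9 of the 10 genes. No probe set was paired with Gsk3b in that way. The study hybridised total RNA of cerebral cortex to 2 oligonucleotide arrays, 1 for mice that lack presenilin conditionally (presenilin conditional double knockout, PS cDKO) and 1 for their controls, at an age of 6 months in both groups. The labels do not give the strain, the alleles of the control mice, the driver of the deletion or whether an array held RNA of 1 animal or of a pool. In the mouse line known by this name, presenilin is lost after birth from excitatory neurons of the forebrain, so other cells of the cortex keep it; the labels do not state this for these samples.

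Classical cadherins hold neighbouring cells together, at synapses as well as at epithelial junctions. Their cytoplasmic tails bind β-catenin and a p120-type catenin, and α-catenin links β-catenin to actin. Presenilin is the catalytic subunit of γ-secretase, which cleaves E-cadherin and N-cadherin within the membrane and releases their tails. β-catenin that is not at the membrane is held by Axin and Apc, phosphorylated by the kinases of the destruction complex and degraded. Wnt binding to Frizzled and Lrp receptors acts through Dishevelled to stop this, and β-catenin then activates target genes with Tcf and Lef factors. An RNA array measures transcripts, and neither cleavage nor the amount or place of these proteins.

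Values are linear array intensities, in arbitrary units, with the PS cDKO array multiplied by a common factor that added 0.034 on the log2 scale. A ratio is PS cDKO over control. Intensities under a floor of 232 were set to it, so a probe set under the floor on 1 array has only a bound, written "at least", and one under it on both arrays has no ratio. With 1 array per genotype the spread between animals is unknown, and no difference was tested. The only repeated measurement was that of genes with several probe sets. Over 749 such genes the SD of the log2 ratio of 1 probe set was 0.21, or 1.16-fold, and a difference below this lies within the spread between probe sets of a gene. Intensities of different probe sets are not comparable as transcript levels. Summed intensities of a list of marker genes are therefore weighted toward its brightest probe sets, and include probe sets under the floor as measured. Psen2, a presenilin gene, had intensities of 105 and 97.1, both under the floor, and so gave no check of the genotype. Some marker genes of the tissue on the array were above the floor on both arrays in at least 1 probe set. They were 3 of 4 for excitatory cortical neurons, among them Tbr1 and Nrgn, and 6 of 7 for inhibitory neurons. For astrocytes they were 6 of 6, for microglia 7 of 8 and for oligodendrocytes 3 of 5. Of the 2 Gfap probe sets 1 passed on both arrays, and the other had 188 on the control array, under the floor.

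Most of the genes differed little between the genotypes, while the neural catenin Ctnnd2 and the scaffold Axin1 were lower and Cdh2 was higher in the PS cDKO. Of the 11 probe sets, 9 were above the floor on both arrays, 1 had a bound and 1 was under the floor on both. The log2 ratios of the 9 ran from -0.39 to 0.20, with a median of 0.06, against a median of 0.0045 over all 6255 such probe sets with a single symbol. For 7 of the 9 the ratio lay within 1 SD of the spread between probe sets of a gene, and 63.1% of all such probe sets did so. With the bound at its limit, 2 of the 10 measured probe sets were at least 1.2-fold lower, where 13.3% of all measured probe sets were. Just 1 of the 10 was at least 1.2-fold higher, against 13.2% of all. At 1.5-fold 0 of the 10 were higher and 0 lower, against 1.27% and 1.01% of all. These counts are near the background, and the 10 genes cannot be said to stand apart from the rest of the array.

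**Figure D1:**
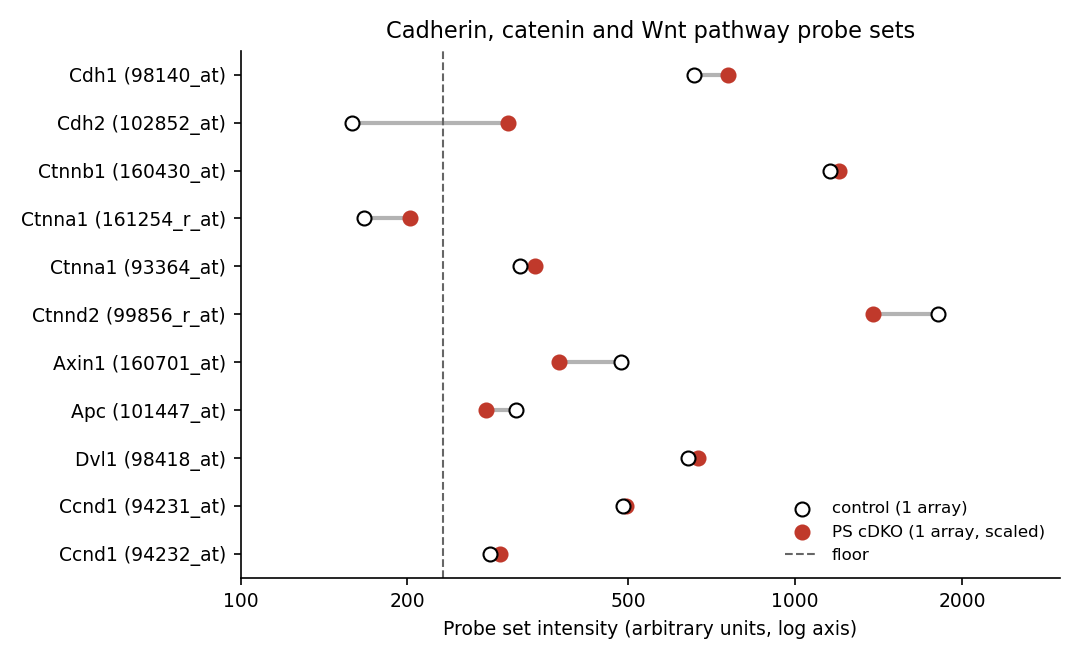
Intensity of each of the 11 probe sets on a log axis (arbitrary units), with open circles for the control array, filled circles for the scaled PS cDKO array and a dashed line at the floor of 232. Ctnnd2 and Axin1 lie visibly lower in the PS cDKO, Cdh2 crosses the floor upward, and the circles of Ctnnb1, Dvl1 and both Ccnd1 probe sets nearly coincide.

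Among the cadherins, Cdh1 encodes E-cadherin, the main cadherin of epithelia. It had 657 in control cortex and 758 in PS cDKO cortex, 1.15-fold higher. This log2 ratio of 0.20 was the highest of the 9 and still within the SD of 0.21. Of the 500 probe sets nearest in intensity, 168 differed as much in either direction. Markers of epithelium moved in part with it: 4 of the 8 listed genes were above the floor and all 4 were higher, Krt18 by 1.48-fold and Cldn4 by 1.34-fold, but Krt8 and Krt19 by 1.01-fold each. The summed intensity of that list's 12 probe sets was 2365 in control cortex and 2720 in PS cDKO cortex. Markers of choroid plexus and leptomeninges, a separate list, were mixed: of 6 measured genes 3 were higher and 3 lower. Ttr was 1.84-fold and Igfbp2 1.60-fold lower, whereas Col1a1 was 1.15-fold and Folr1 1.07-fold higher. The sums over the 10 probe sets of that list were 5516 in control cortex and 5153 in PS cDKO cortex. Epcam, which defines epithelial cells, was far under the floor at 26.1 and 28.7. The part of epithelial cells in the Cdh1 difference was not tested.

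Cdh2 encodes N-cadherin, the main classical cadherin of neurons and astrocytes. Its intensity was 159 on the control array, under the floor, and 303 on the PS cDKO array, above it. The bound was at least 1.31-fold higher. With no floor the ratio was 1.91-fold, and 5 of the 500 probe sets nearest in intensity, Cdh2 included, were as high or higher. With no floor Cdh2 was the 1 of the 11 probe sets at least 1.5-fold higher, where 6.11% of all 10803 probe sets with positive intensities were, and 2 of the 11 were at least 1.2-fold higher, where 22.7% of all were. Under a floor at the 60th percentile Cdh2 was under it on both arrays and had no ratio. The value thus rests on intensities at the 29.6th and 48.9th percentiles of their arrays, in 1 probe set. Astrocyte markers were higher as well: 5 of 6 were, and their summed intensity over 9 probe sets was 7811 in control cortex and 11073 in PS cDKO cortex. Gfap carried most of the rise in this sum: over the other 7 probe sets the sums were 7165 and 7482. Of the other markers, Gja1 was 1.46-fold, Aqp4 1.45-fold, Slc1a2 1.15-fold and S100b 1.05-fold higher. Aldoc, the astrocytic aldolase and the brightest of them, was 1.19-fold lower (3296 against 2777). Microglial markers were higher in 7 of 7 measured genes, with sums of 3919 and 6433. The part of these cells in the Cdh2 difference was not tested.

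Among the catenins, Ctnnb1 encodes β-catenin, the link between cadherins and Wnt transcription. Its intensity was 1156 in control cortex and 1201 in PS cDKO cortex, 1.04-fold higher. The log2 ratio of 0.06 lay well inside the spread between probe sets of a gene, and 410 of the 500 probe sets nearest in intensity differed as much. The transcript of the central gene of the pathway was therefore nearly equal on these 2 arrays.

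Ctnna1 encodes αE-catenin, which ties the cadherin complex to actin. Of its 2 probe sets, 93364_at had 319 in control cortex and 339 in PS cDKO cortex, 1.06-fold higher. The other, 161254_r_at, was under the floor on both arrays at 167 and 202. With no floor the latter was 1.21-fold higher, and 197 of the 500 probe sets of like intensity differed as much. Both thus pointed the same way by amounts that were common on these arrays.

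Ctnnd2 encodes δ-catenin, a p120-type catenin of neurons that binds cadherin tails at synapses and is known as a presenilin-binding protein. Its intensity was 1809 in control cortex and 1379 in PS cDKO cortex, 1.31-fold lower. This log2 ratio of -0.39 was the lowest of the 9, and only 5.20% of all probe sets that passed the floor on both arrays were lower still. Of the 500 nearest in intensity, 48 differed as much. The ratio stayed between 1.25-fold and 1.34-fold lower under every scaling and floor tried. It rests on 1 probe set, 99856_r_at, whose suffix marks a design with relaxed rules, and without suffixed probe sets Ctnnd2 had no value. Markers of excitatory cortical neurons were lower alongside it, in 3 of 3 measured genes. Nrgn was 1.49-fold, Tbr1 1.43-fold and Camk2a 1.07-fold lower, and the list's summed intensity over 5 probe sets was 3708 in control cortex and 2687 in PS cDKO cortex. Of 6 measured markers of inhibitory neurons 4 were lower, Npy and Sst by 1.47-fold each, Slc32a1 by 1.18-fold and Pvalb by 1.14-fold. Gad1 and Vip were 1.07-fold and 1.05-fold higher, and the sums over the 8 probe sets of this list were 8053 and 6706. In tissue RNA, fewer cells of a type and less RNA per cell cannot be told apart, and the part of neuron number in the Ctnnd2 difference was not tested.

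**Figure D2:**
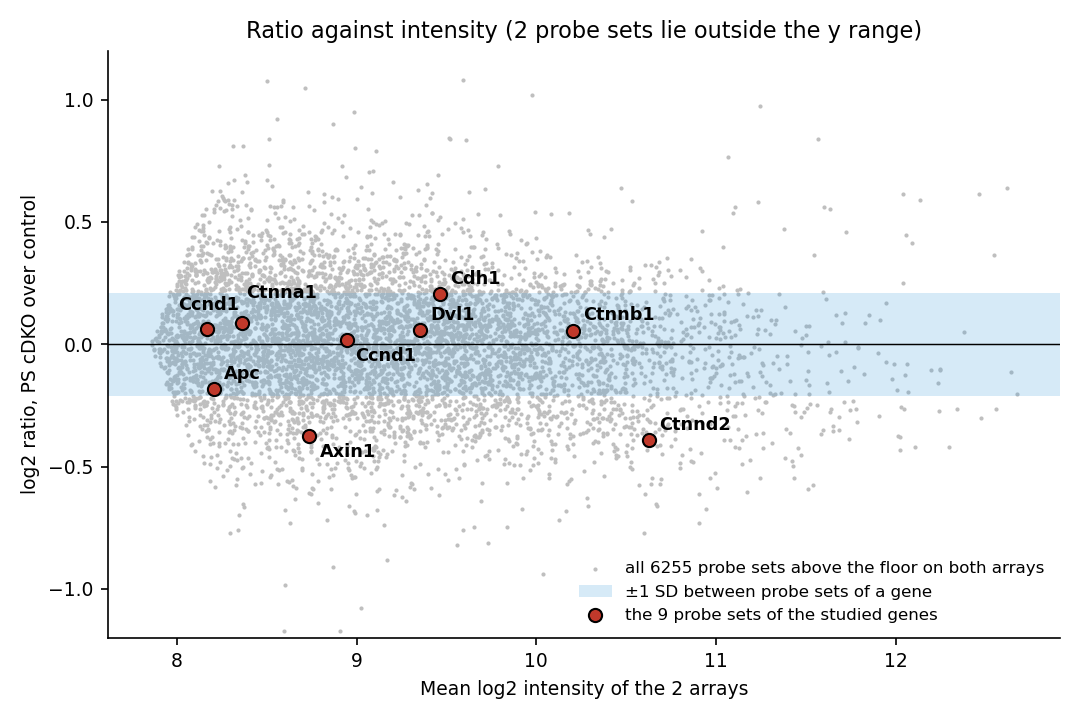
The log2 ratio of PS cDKO over control (y axis) against the mean log2 intensity of the 2 arrays (x axis), for 6255 probe sets that passed the floor on both arrays in grey and the 9 of the studied genes in red, with a band at 1 SD (0.21) between probe sets of a gene. Ctnnd2 and Axin1 lie below the band and the other 7 points inside it; 2 grey points fall outside the y range.

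Among the destruction complex genes, Axin1 encodes the scaffold on which β-catenin is phosphorylated. Its intensity was 486 in control cortex and 375 in PS cDKO cortex, 1.30-fold lower. The log2 ratio was -0.38, and 5.84% of all probe sets that passed the floor on both arrays were lower still. Of the 500 nearest in intensity, 61 differed as much. It was 1.33-fold lower with the intensities as deposited and, in the form of a bound, at least 1.21-fold lower with a floor at the 60th percentile. Axin1 and Ctnnd2 were thus the only probe sets of the 11 below the control by more than the spread between probe sets of a gene.

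Apc encodes the other large scaffold of the complex. Its intensity was 314 in control cortex and 277 in PS cDKO cortex, 1.14-fold lower. The log2 ratio of -0.18 was within the spread, and 234 of the 500 nearest probe sets differed as much. After quantile normalization it was 1.19-fold lower, and with a floor at the 60th percentile it had no value. Gsk3b, the kinase that marks β-catenin for degradation, could not be described.

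Dvl1 encodes Dishevelled, which carries the signal from Frizzled receptors to the destruction complex. Its intensity was 641 in control cortex and 668 in PS cDKO cortex, 1.04-fold higher. Ccnd1 encodes cyclin D1, a driver of cell-cycle entry and a known β-catenin target. Its probe set 94231_at had 490 in control cortex and 496 in PS cDKO cortex, and 94232_at had 282 and 294. These were differences of 1.01-fold and 1.04-fold, both within the spread. The sign of the first turned with the intensities as deposited (-0.02) and that of both after quantile normalization (-0.0036 and -0.0057); the second also turned after lowess (-0.0011). The target gene's transcript was thus level between the arrays in both of its probe sets, which is the one case among the 9 genes where 2 probe sets above the floor could be compared.

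**Figure D3:**
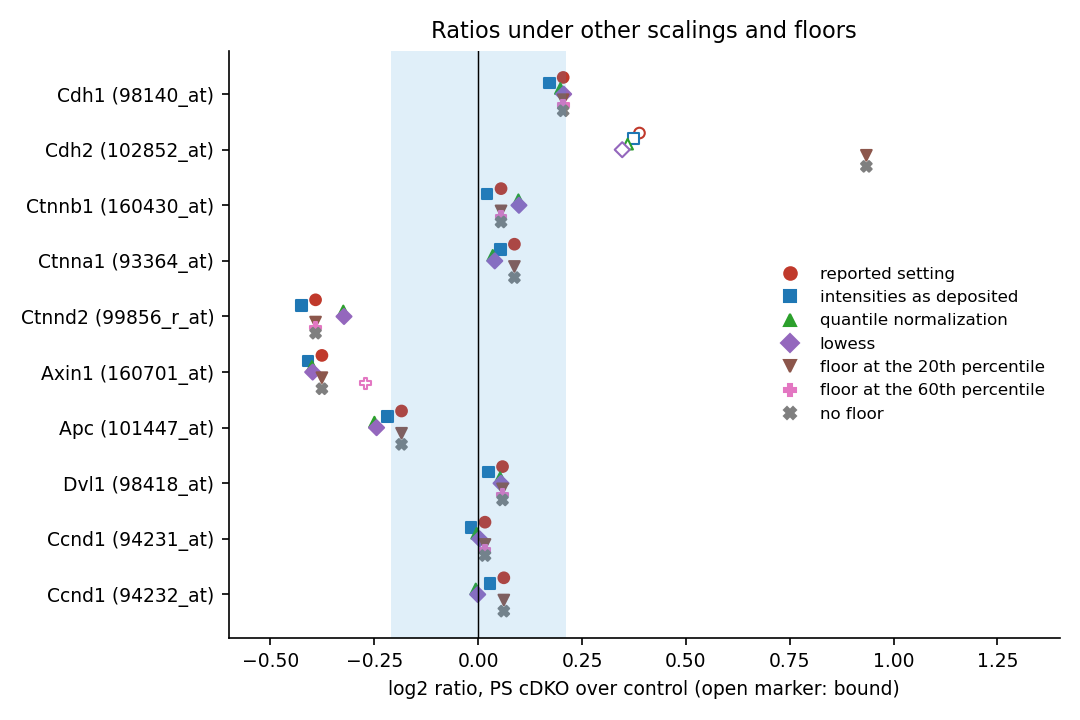
The log2 ratio of each of the 10 measured probe sets under the reported setting and 6 other scalings and floors, with open markers for bounds and a band at 1 SD (0.21) between probe sets of a gene. Ctnnd2 and Axin1 stay left of the band in every setting, whereas Cdh2 moves from a bound of 0.39 to 0.93 once the floor is lowered or removed.

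The nearest relatives of these genes, named for their homology and outside the rule for named genes, gave a mixed picture. Gsk3a, the paralogue of Gsk3b, was 1.21-fold lower (3169 against 2616), a log2 ratio of -0.28 that was -0.16 after lowess. Axin2, a Wnt-induced paralogue of Axin1, was at 1.01-fold of the control (276 against 280). Its log2 ratio of 0.02 turned to -0.02 with the intensities as deposited and to -0.05 after quantile normalization and after lowess. Apc2 was higher in both of its probe sets, by 1.16-fold and 1.02-fold. Dvl2 and Dvl3 were 1.14-fold and 1.18-fold higher. With no floor Dvl2 was 1.49-fold higher, where a further probe set, under the floor on the control array (138 against 268), entered its mean. Ctnnd1, which encodes p120-catenin, was higher in both probe sets, by 1.10-fold and 1.2-fold, opposite to Ctnnd2. The neuronal α-catenin Ctnna2 had probe sets in both directions, at log2 ratios of -0.23 and 0.09. Among the D cyclins Ccnd2 was 1.199-fold higher, just short of the 1.2-fold threshold, and Ccnd3 1.03-fold lower. Apc2 and Ctnnd1 thus lay above the control where Apc and Ctnnd2 lay below it. The gene log2 ratios of Apc (-0.18), Apc2 (0.12) and Ctnnd1 (0.20) were smaller in size than the SD of 0.21 for 1 probe set.

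The wider pathway was described through 10 gene lists, which leave out the 10 genes but include their relatives above. Over all 5885 measured genes the median log2 ratio was 0.01, with 12.5% at least 1.2-fold higher, 12.9% at least 1.2-fold lower, and 1.12% and 0.816% past 1.5-fold. Of the other cadherins, 8 of 16 on the array were measured, with 2 at least 1.2-fold higher, 0 lower and a median of 0.12. Cdh13, a cadherin anchored without a cytoplasmic tail, and Cdh4, R-cadherin, were both 1.2-fold higher. Celsr2 and Cdh3 had the lowest ratios, each 1.01-fold lower. With no floor the median was -0.0055. Both protocadherin genes on the array, Pcdh7 and Pcdh12, were under the floor.

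Other catenins and junction partners lay on both sides of the control level. Of 21 measured genes 13 were higher and 8 lower, 1 was at least 1.2-fold higher and 1 as much lower, and the median was 0.05. Ctnnbip1, an inhibitor that keeps β-catenin from Tcf factors, was 1.28-fold higher (413 against 530). Pkp3, a plakophilin of desmosomes, was 1.18-fold higher. The actin crosslinkers Actn4 and Actn1 were 1.24-fold and 1.19-fold lower, although Actn1 was 1.09-fold higher with no floor, where further probe sets entered its mean.

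Wnt ligands lay on both sides of the control. Of 9 measured genes 3 were at least 1.2-fold higher and 0 lower, with a median of 0.0090. Wnt4 was 1.26-fold (399 against 500) and Wnt3 1.24-fold higher (589 against 731), and Wnt1 was at least 1.26-fold higher. Wnt5b was 1.18-fold and Wnt6 1.12-fold lower.

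Receptors for Wnt proteins were likewise mixed. Of 12 measured genes 3 were at least 1.2-fold higher and 1 lower, with a median of 0.06. Ror1, a receptor tyrosine kinase for Wnt5a, was 1.38-fold higher (1651 against 2276), and Ror2 1.26-fold, or 1.11-fold with no floor. Frizzled Fzd6 was 1.21-fold and the co-receptor Lrp5 1.18-fold lower. The co-receptor Lrp6 ran the other way, 1.22-fold higher (368 against 451), or 1.32-fold with no floor. Of 4 measured secreted inhibitors 0 reached 1.2-fold either way. Sfrp2 and Sfrp4, which bind Wnt proteins, were 1.19-fold and 1.12-fold higher, and Dkk3 and Dkk1 were 1.09-fold and 1.01-fold lower.

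The cytoplasmic transducers held more genes below the control than above it. Of 23 measured genes 5 were at least 1.2-fold lower and 2 higher, with a median of -0.0071. Fbxw7, the substrate-binding subunit of a ubiquitin ligase, was 1.47-fold lower (476 against 323). Fbxw11 and Btrc, which encode subunits of the same kind, did not share this difference. Fbxw11 had a log2 ratio of -0.0071, and Btrc was at least 1.06-fold lower as a bound, or 1.05-fold higher with no floor. Ppp2r5c, a regulatory subunit of protein phosphatase 2A, was 1.31-fold lower (1056 against 804). The further 3 were Gsk3a, Strap at 1.28-fold and Ppp2r5a at 1.22-fold lower. Frat2, which binds Gsk3 and holds it from Axin, was 1.24-fold higher (366 against 456), or 1.12-fold with no floor. The other gene past 1.2-fold was Csnk2a2, at least 1.22-fold higher as a bound, or 1.18-fold with no floor. Peg3 was 1.19-fold higher. Probe sets of a gene could differ in sign. The 3 of Peg3 gave log2 ratios from -0.09 to 0.44. The 4 of the casein kinase gene Csnk1d ran from -0.20 to 0.13.

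Nuclear factors of the pathway had a median of 0.04 over 14 genes, with 0 at least 1.2-fold higher and 2 lower. Tle5 was 1.28-fold lower (1771 against 1380). Smarca4, a chromatin remodelling ATPase, was 1.22-fold lower, or 1.07-fold with no floor. The histone deacetylase Hdac2 was 1.17-fold and the Wnt transcription factor Tcf7l2 1.10-fold higher.

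Other β-catenin target genes included the only ones of these lists past 1.5-fold. Of 21 measured genes 4 were at least 1.2-fold higher and 1 lower, with a median of 0.10. Ephb3, an ephrin receptor, was 1.96-fold higher (1733 against 3400). Mmp7, a matrix protease, was at least 1.52-fold higher, from 202 to 352, and its bound lay close to the threshold. Gja1, the main connexin of astrocytes, was 1.46-fold higher as a gene, but its probe sets disagreed at 1.01-fold and 2.11-fold. Plaur, the urokinase receptor, was 1.31-fold higher. The lowest were Fosl1 and Id2, at 1.22-fold and 1.16-fold lower. Lef1, itself both a target and a β-catenin partner, was 1.05-fold and 1.08-fold higher in its 2 probe sets, and Myc was under the floor. The targets thus included genes well above the control beside Ccnd1, Axin2 and Lef1 near it.

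**Figure D4:**
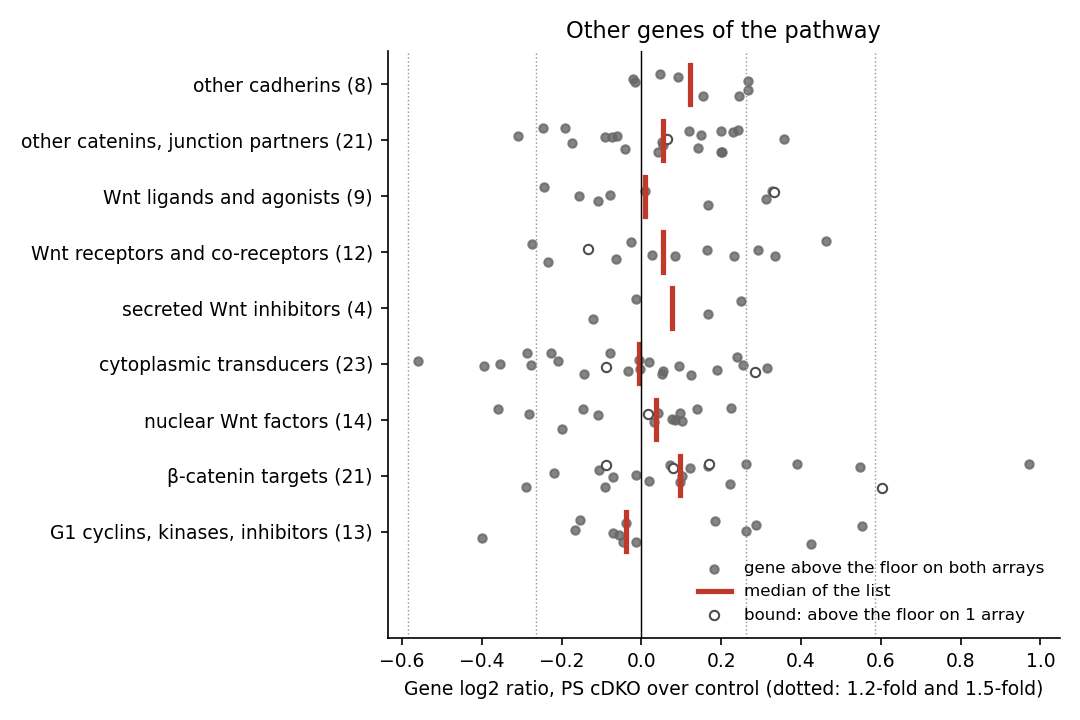
Gene log2 ratios of PS cDKO over control for 9 lists of the pathway, with the number of measured genes in parentheses, filled circles for genes above the floor on both arrays, open circles for bounds, red bars for list medians and dotted lines at 1.2-fold and 1.5-fold. List medians lie between -0.04 and 0.12, and only Ephb3 and Mmp7 pass 1.5-fold.

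Genes that act with cyclin D1 at the start of the cell cycle had a median of -0.04 over 13 measured genes, with 3 at least 1.2-fold higher and 1 lower. Cdkn1b, the inhibitor p27, was 1.47-fold higher (2620 against 3846), or 1.27-fold with no floor, and the transcription factor E2f1 1.34-fold higher. The remaining gene past 1.2-fold was Ccne2, 1.22-fold higher (472 against 576). The retinoblastoma gene Rb1 was 1.32-fold lower (709 against 537). A further Rb1 probe set under the floor ran the other way (33.2 against 51.0), so that with no floor the gene was 1.08-fold higher. The cyclin D1 partner Cdk4 was 1.12-fold lower.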

How the data were processed

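The deposited values are linear intensities, 1 for each probe set on each array; what the authors did to compute them was not stated in the sources used here. Values below 0 occur (13 on the control array, 18 on the PS cDKO array), and the medians were 300 and 305. The number of arrays, 1 per group, limits the precision, and no test was run. Gene names came from the array platform's annotation, which can be out of date: 10829 probe sets had 1 symbol, 396 several and 1193 none. The 1-symbol probe sets stood for 8251 genes, and 8237 of these had their gene ID in a RefSeq table of GRCm38.p6, used for names only.

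The PS cDKO array was scaled to a median log2 ratio of 0 over probe sets above the median on both arrays. The floor was the 40th percentile of both arrays pooled. A gene's value averages the log2 ratios of the probe sets that pass the floor on both arrays, or the bounds where there are none. Members, lists and rules were chosen with earlier results of these data known. Besides the 10 genes, the text names in each list the 2 highest and 2 lowest genes above the floor on both arrays and any gene past 1.5-fold. Nearest relatives and the genes Wnt1, Lrp6, Strap, Ppp2r5a, Fbxw11, Btrc, Csnk2a2, Csnk1d, Plaur, Lef1, Ccne2, Myc, Pcdh7 and Pcdh12 were added after their values were seen. The rule also took Psen2 and an item that is not reported here. The code was checked on simulated data. Alternatives were the intensities as deposited, quantile normalization, lowess (span 0.3), floors at percentiles 20 and 60, no floor, no suffixed probe sets and the brightest probe set. The tools were Python 3.11.15 with matplotlib 3.10.9, statsmodels 0.14.6, scipy 1.17.1, pandas 2.3.3 and numpy 2.4.6.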

Additional observations from a re-analysis of the deposited data

How the results depend on the processing

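No paired analysis was possible because the genotypes have 1 array each, and none could be left out. Of 216 results recomputed under an alternative, 206 moved by less than the 0.21 SD between probe sets of a gene or, for counts, by at most 1.5 times. The 10 that moved all trace to the floor or to the suffix of the Ctnnd2 probe set. The share of 206 overstates how stable the results are. A gene with 1 probe set was counted both as a gene and as a probe set. Where that probe set passed the floor on both arrays, a lower floor, no floor or the brightest probe set could not change it. Settings that left a gene without a value, such as percentile 60 for Apc and Cdh2, were not counted. The Cdh2 log2 ratio became 0.93 both without a floor and with the lower floor, at percentile 20. The number of probe sets at least 1.2-fold higher became 2 in both of these settings, the second being the Ctnna1 probe set under the main floor, and 0 with the higher floor, at percentile 60. The number at least 1.5-fold higher became 1 with the lower floor and with no floor, which was Cdh2. The number at least 1.2-fold lower became 1 without suffixed probe sets. List medians stayed within 0.21 of their reported values, but 5 of the 9 crossed 0 in at least 1 setting: G1 cyclins ran from -0.07 to 0.13, Wnt ligands from -0.09 to 0.17, nuclear factors from -0.02 to 0.05, secreted inhibitors from -0.01 to 0.08 and other cadherins from -0.0055 to 0.12. No scaling shifted the median over all genes by as much as 0.1 (log2). Genes near the floor of 232 cannot be resolved with 1 array per genotype.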
